A study of Mus musculus with 18 samples.

Results

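Loss of ribosomal S6 kinase 1 (S6K1) was examined in mouse embryonic fibroblasts (MEFs) that had been driven towards senescence by a constitutively active form of RAS. The comparison was defined by the labels, with earlier results of these data known. It holds 6 of the 18 RNA-seq libraries of the series. Of these, 3 came from S6K1 wild-type cells with RAS (WT RAS) and 3 from S6K1 knockout cells with RAS (KO RAS). A further 3 libraries from wild-type cells with an empty retroviral vector (WT EV) show the level before RAS, and no knockout library with the empty vector was analysed here. MEFs are primary cells grown from minced mid-gestation embryos without head and viscera, and the mice were on the C57BL/6 background. The S6K1 deletion is present in every cell of the knockout embryos, from whichever tissue the culture grew. Per the methods, wild-type and knockout MEFs came from littermates. Equal replicate numbers were taken to mark a pair of them, so the 6 libraries make 3 pairs, and the RAS vector was a retrovirus carried by all 6.

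S6K1, encoded by Rps6kb1, is a protein kinase switched on by the growth regulator mTORC1, and it phosphorylates ribosomal protein S6 and other factors of translation and cell growth. Oncogenic RAS stops primary fibroblasts from dividing and leads them to secrete cytokines, chemokines and proteases, together called the senescence-associated secretory phenotype (SASP). Cytosolic DNA in such cells can be sensed by cGAS and STING, which turn on type I interferon and with it a large set of antiviral genes. Cultures of MEFs are not pure, and macrophages of the embryo can be carried along in them. Macrophages express many of the same chemokine and interferon-inducible genes, and in a bulk library fewer cells of one type and less RNA per cell cannot be told apart.

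Total counts of the 6 libraries were between 11366404 and 13509266. The fibroblast label was met by abundant vimentin (Vim, 4144 to 7125 CPM, the counts of a gene per 1000000 counts of its library, in the 6 libraries) and fibronectin (Fn1, 8298 to 21719 CPM). Defining macrophage genes were also present in every library, at levels given below. The Y-linked gene Eif2s3y was at 84.6 to 90.9 CPM in 5 of the 6 libraries and at 0.0833 CPM in KO RAS replicate 3. Xist, another sex-linked gene, went the other way, with 4624 counts in KO RAS replicate 3 and 0 to 3 counts in the other RAS libraries. In the third pair the wild-type and knockout libraries thus differed in sex-linked expression. A few abundant genes were nearly absent from all libraries, among them Gapdh with 8.18 to 13.5 CPM. These have near-identical copies elsewhere in the genome and their counts are uncertain.

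Across the genome, the difference between genotypes depended on whether littermates were compared with each other. With the 3 KO RAS libraries set against the 3 WT RAS libraries as independent samples, 1 gene out of 14036 tested passed an adjusted p of 0.05 (0.00712% of those tested, by edgeR's quasi-likelihood test after Benjamini-Hochberg adjustment). By unadjusted p, 963 (6.86%) were under that value, 733 of them lower in KO RAS. With the pair as a term in the model (the paired fit), 583 genes were called (4.15%), of which 506 fell (3.61% of those tested) and 77 rose (0.549%) in KO RAS. Of the 506 genes that fell, 502 were lower in KO RAS in all 3 pairs, 394 had a log2 fold change below −1 and 210 below −2. Over all tested genes, 17.8% were lower and 20.0% higher in all 3 pairs, and the median log2 difference was 0.03. DESeq2 without pairs called 63 genes and with pairs 750. The paired count was highest without the third pair, the pair that differed in sex-linked expression. It was 2627 (1241 lower, 1386 higher) without replicate 3, 200 without replicate 2 and 162 without replicate 1. Whether the sex-linked difference had a part in this was not tested. Log2 fold changes, standard errors and adjusted p-values below are KO RAS against WT RAS in the paired fit unless stated otherwise. In the fit without pairs, the adjusted p of each tested gene named below was 0.110 or higher, Dhx40 excepted. Of the 83 genes named here that were called with all pairs, 29 were still called without replicate 1, 33 without replicate 2 and 81 without replicate 3, and none changed direction. The 28 called in all of these fits were Rps6kb1, Dhx40, Tbx4, Slfn8, Slfn9, Slfn2, Lyz2, Mpeg1, Mrc1, C1qa, Csf1r, Fcgr1, Oas3, Sp100, Psmb8, Irf8, Ccl3, Ccl12, Cxcl10, Tnf, C3ar1, C5ar1, Cfp, Msx1, Ccl6, Ms4a6b, Aoah and Cd180.

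The targeted gene and its surroundings on chromosome 11 were described first. Rps6kb1 (chr11:86498869-86544885 in GRCm38.p6) had 61.6, 70.9 and 74.6 CPM in WT RAS and 23.6, 31.3 and 37.00 CPM in KO RAS, so the knockout libraries kept reads over the gene while no knockout library reached any wild-type one. Dhx40, which encodes an RNA helicase and lies 0.224 Mb from Rps6kb1, was the 1 gene called without pairs (adjusted p = 0.0168, edgeR). It had 70.2, 68.5 and 68.7 CPM in WT EV, 126, 112 and 126 CPM in WT RAS and 55.02, 56.2 and 60.00 CPM in KO RAS. Without pairs, the call was kept without WT RAS replicate 3 and lost without any other single library (adjusted p 0.0846 to 0.247, edgeR). All 3 knockout libraries were below both wild-type groups, and the log2 fold change was −1.08 (SE 0.08, adjusted p = 3.55e-05, edgeR). Rnft1, a gene whose end overlaps that of Rps6kb1, was higher in KO RAS (93.3, 85.4 and 86.3 CPM) than in WT RAS (69.7, 67.4 and 65.95 CPM), with a log2 fold change of 0.38 (adjusted p = 0.019, edgeR). The noncoding gene Brip1os fell by 0.64 on the log2 scale, from 71.5, 75.3 and 74.5 CPM to 44.7, 44.6 and 52.7 CPM. The T-box transcription factor genes Tbx2 and Tbx4, at −0.657 and −0.583 Mb, rose.

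Within 2 Mb of Rps6kb1, 6 of 45 tested genes were called (13.3%, against 4.15% of all tested genes), 3 in each direction. The targeted gene itself is counted among the 45, the 6 and the 3 that fell. From 2 to 10 Mb away, 24 of 159 were called (15.1%), 22 of them lower, and farther away on the same chromosome 43 of 870 (4.94%). The 2 to 10 Mb windows contain the CC chemokine cluster and the schlafen cluster, whose members are expressed in macrophages or induced by interferon. Slfn8, a member of the schlafen family of RNA-binding growth regulators, had 10.1, 16.2 and 2.73 CPM in WT RAS and 0.182, 0.536 and 0.167 CPM in KO RAS, with a fold change of −4.91 on the log2 scale (SE 0.38, adjusted p = 5.34e-05, edgeR). The neighbouring Slfn9 was at 17.1, 34.4 and 25.4 CPM in WT EV, 18.95, 23.99 and 9.08 CPM in WT RAS and 1.64, 2.22 and 1.42 CPM in KO RAS. Neither gene overlapped between the genotypes, including the third pair, in which the interferon gene list described below differed least. Slfn2 (−2.64) and Slfn5 (−2.52) from the same cluster also fell on the log2 scale. These family members are close paralogs, and reads they share could be split between them.

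On the other side of Rps6kb1, at 2.42 Mb, Elobl (an elongin B-like gene) was listed at 0 counts in all 3 KO RAS libraries. It had 1.46, 1.56 and 7.24 CPM in WT EV and 0.427, 0.234 and 1.93 CPM in WT RAS, or 32 counts over the 3 WT RAS libraries. Against a floor of 3 counts over the KO RAS group, Elobl was at least 10.4-fold lower there (adjusted p = 0.0079, edgeR). Of the 32 counts 24 came from WT RAS replicate 3, and without that library, an alternative chosen after seeing the data, the bound was 3.91-fold. Elobl also stood apart from the macrophage markers, with a Pearson r of 0.27 with the macrophage score described below over 9 libraries that share 3 lines. Whether position near the deleted gene had a part in these differences was not tested, and a deletion and its flanking chromosome cannot be told apart in this design.

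**Figure D1:**
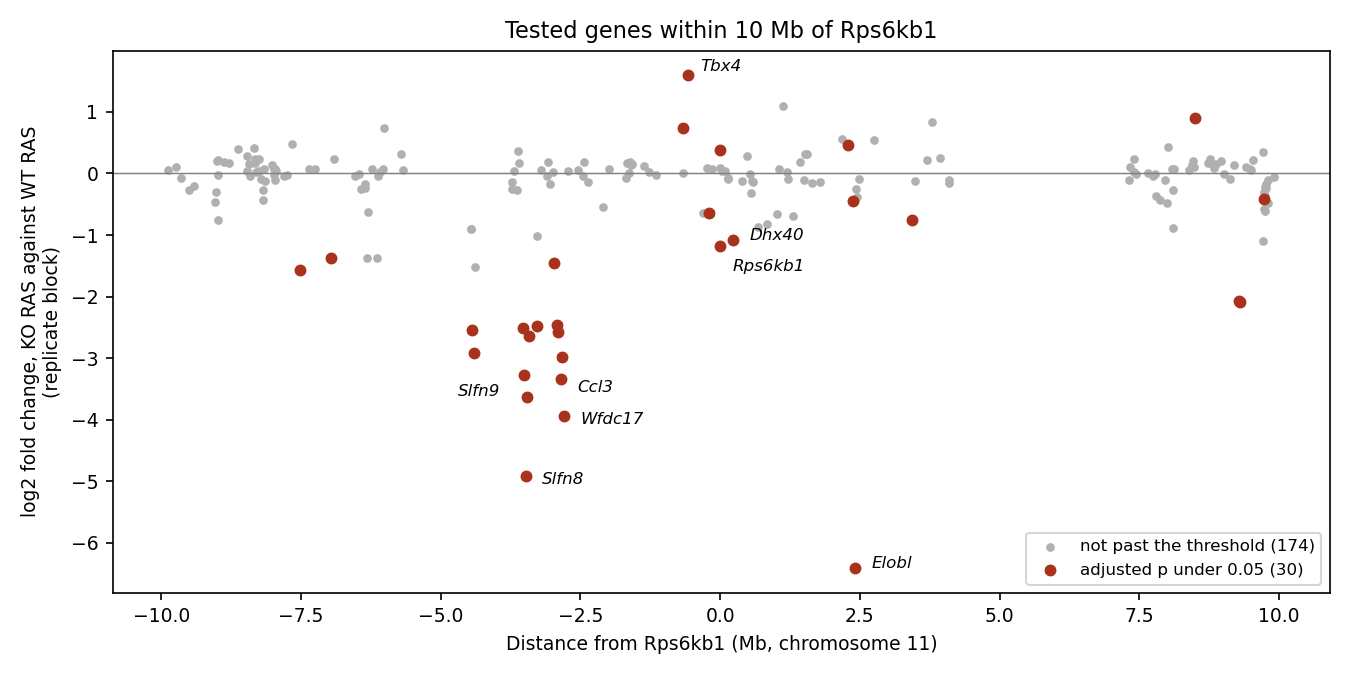
Log2 fold change (KO RAS against WT RAS, paired fit) of the 204 tested genes within 10 Mb of Rps6kb1 against their distance from it in Mb. The 30 genes in red had an adjusted p under 0.05; the column of low points from −4.44 to −2.79 Mb holds mostly chemokine and schlafen genes, and Dhx40 and Rps6kb1 lie near 0.

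Macrophage markers were the list with the most uniform change. All 33 tested members of 34 listed were lower in KO RAS and 32 of them fell (percent called lower among all genes, 3.61%), with a median log2 fold change of −2.13, against 0.03 for all genes. Leaving out replicate 1, 2 or 3 left 27, 29 and 33 members called. The exception was Aif1, with 3.33, 3.58 and 0.402 CPM in WT RAS, 0.455, 0.2299 and 0.667 CPM in the knockout and an adjusted p of 0.0858 (edgeR). The macrophage score, the mean log2 CPM of the list, was 6.24, 6.07 and 3.88 in WT RAS, against 4.17, 3.62 and 2.36 in KO RAS. KO RAS was lower within each pair, but WT RAS replicate 3 was below KO RAS replicate 1, so the genotypes overlapped. WT EV replicates had scores of 6.04, 5.76 and 3.92, close to those of the WT RAS replicates with the same number.

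Lysozyme (Lyz2), an antibacterial enzyme of phagocytes and the most abundant member, had 1865, 1810 and 395 CPM in WT RAS and 459, 419 and 140.5 CPM in KO RAS (log2 fold change −1.87, SE 0.14, adjusted p = 3.91e-05, edgeR). C1qa, a chain of the complement component C1q, had 321, 229 and 42.1 CPM and 62.8, 29.7 and 12.7 CPM. Csf1r, the receptor for the growth factor on which macrophages depend, had 148, 148 and 33.2 CPM and 36.1, 26.3 and 8.92 CPM. For all 3 genes the first and second WT RAS libraries were several times above the third, and the third lay between KO RAS replicates 1 and 3. Mpeg1, a pore-forming protein of phagocytes, followed with 368, 358 and 84.3 CPM against 86.9, 68.97 and 24.7 CPM. The mannose receptor gene Mrc1 was 1 of 5 members whose genotypes did not overlap, with 172, 209 and 41.9 CPM against 20.8, 22.2 and 8.33 CPM (log2 fold change −2.92, adjusted p = 1.07e-05, edgeR). Over all genes, 4.17% were lower in KO RAS without overlap. Fcgr1, an activating Fc receptor, had the second largest fall of the list, at −2.74 on the log2 scale.

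Summed over the list, macrophage markers made up 4885, 3830 and 1068 CPM in WT EV, 5384, 4842 and 1091 CPM in WT RAS and 1277, 981 and 383 CPM in KO RAS. The ratio of WT RAS to KO RAS within the pairs was 4.22, 4.94 and 2.85. Markers of other cell types gave few calls. Of 3 tested blood cell genes outside the macrophage lineage, 5 skeletal muscle genes and 8 neural genes, none was called in the paired fit by edgeR (3 of these 16 had an unadjusted p under 0.05, against 17.8% of all tested genes) or by DESeq2 with pairs. Of 8 tested endothelial genes, 2 were lower and 2 higher in KO RAS without overlap, against 4.17% and 3.85% of all tested genes. Tek alone of them was called and rose, on 3, 4 and 8 counts in WT RAS and 10, 12 and 22 counts in KO RAS. Among 5 epithelial genes Cldn4 rose, and of 16 fibroblast genes Twist2 fell (257, 266 and 98.8 CPM against 135, 142 and 80.1 CPM).

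**Figure D2:**
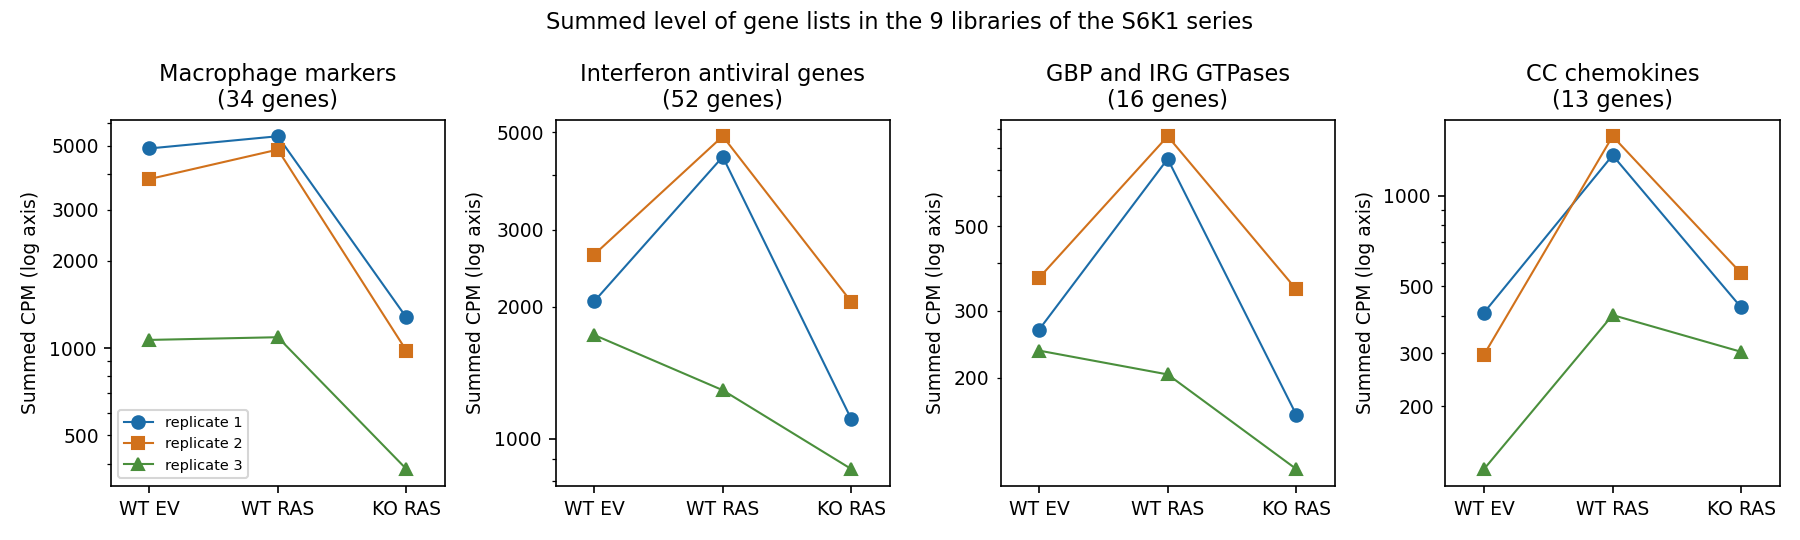
Summed level in CPM (log axis) of 4 gene lists in each of the 9 libraries, with libraries of the same replicate number joined by a line. Within each line number, macrophage markers were alike in WT EV and WT RAS and lower in KO RAS, although KO RAS replicate 1 was above WT RAS replicate 3; interferon genes, the GBP and IRG GTPases and CC chemokines were higher in WT RAS than in WT EV, except that the first 2 of these lists were not in replicate 3.

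The relation of the other changes to the macrophage markers was described by the Pearson correlation of each gene with the macrophage score over the 9 libraries. These libraries come from 3 wild-type lines and 3 knockout lines, and WT EV and WT RAS share lines, so the values are descriptions. Of the 474 genes that fell and are not in the macrophage list, 259 (54.6%) had r above 0.9, against 315 of 14003 (2.25%) of all tested genes outside the list. The score was lower in KO RAS in each pair, so choosing genes that fell favours a positive r and choosing genes that rose a negative one, and of the 77 that rose 5 had r below −0.9. Genes of the myeloid lineage that the list did not hold were among the largest falls, such as Cd180, a relative of the Toll-like receptors (29.5, 24.2 and 5.78 CPM against 4.27, 2.61 and 0.833 CPM, log2 fold change −2.95), Ms4a6b, a membrane protein (−3.39), and Aoah, an enzyme that detoxifies bacterial lipopolysaccharide (−3.00). At the other end, 22 genes that fell had r under 0.5, among them Dhx40, Elobl, Ccl6, H2-Q6, Mmp12 and Mmp1a.

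Interferon-inducible genes formed the other large group that fell. To show the sequence through which interferon acts on them, promoters were taken from RefSeq for the 3 most abundant genes that fell in the interferon antiviral and GTPase lists (Ifitm3, Lgals3bp and Irgm1), and for Bst2 and Isg15, the next in level whose promoter holds a match, a choice made after their values were seen. Type I interferon binds its receptor, and a complex of transcription factors that includes IRF9 then binds a DNA element called ISRE, searched for here as the letters GAAA, any 2 bases and GAAA again, on both strands, in the 250 bases before the start of the gene. Matches are in capitals, they can overlap, and each sequence reads 5′ to 3′ on the strand of the gene.
Ifitm3 (chr7:141010745-141010994, minus strand): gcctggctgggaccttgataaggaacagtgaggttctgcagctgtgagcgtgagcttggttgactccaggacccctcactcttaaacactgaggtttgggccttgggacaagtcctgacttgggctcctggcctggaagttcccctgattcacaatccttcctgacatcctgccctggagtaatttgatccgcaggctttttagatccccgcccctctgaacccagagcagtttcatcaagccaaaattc
Lgals3bp (chr11:118401960-118402209, minus strand): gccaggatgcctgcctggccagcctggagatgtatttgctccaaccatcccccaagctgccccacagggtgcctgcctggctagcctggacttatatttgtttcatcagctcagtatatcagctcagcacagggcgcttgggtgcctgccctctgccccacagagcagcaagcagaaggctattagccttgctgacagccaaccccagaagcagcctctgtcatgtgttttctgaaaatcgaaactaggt
Irgm1 (chr11:48871421-48871670, minus strand): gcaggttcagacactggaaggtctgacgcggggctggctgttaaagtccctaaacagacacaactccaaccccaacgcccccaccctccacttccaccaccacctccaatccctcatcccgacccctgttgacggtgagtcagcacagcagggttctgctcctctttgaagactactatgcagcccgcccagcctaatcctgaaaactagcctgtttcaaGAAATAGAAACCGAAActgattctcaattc
Bst2 (chr8:71537473-71537722, minus strand): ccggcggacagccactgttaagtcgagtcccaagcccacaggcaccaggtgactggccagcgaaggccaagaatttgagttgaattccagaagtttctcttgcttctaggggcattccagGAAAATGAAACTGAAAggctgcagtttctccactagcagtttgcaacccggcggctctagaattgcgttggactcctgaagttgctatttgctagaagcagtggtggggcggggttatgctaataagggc
Isg15 (chr4:156200819-156201068, minus strand): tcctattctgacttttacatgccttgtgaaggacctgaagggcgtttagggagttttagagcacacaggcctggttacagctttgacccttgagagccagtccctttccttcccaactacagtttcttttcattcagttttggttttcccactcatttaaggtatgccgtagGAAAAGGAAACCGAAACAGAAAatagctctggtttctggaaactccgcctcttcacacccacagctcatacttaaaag

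Irgm1 holds 2 overlapping matches that begin 30 and 24 bases before the start, Bst2 holds 2 that begin 130 and 124 bases before it, and Isg15 holds 3 that begin 78, 72 and 66 bases before it. Ifitm3 and Lgals3bp hold none in this window. Among the 41 interferon antiviral and GTPase genes that fell and have a promoter in the table, 21 (51.2%) held a match, as did 25 of all 52 listed genes with a promoter (48.1%), against 3.04% of all 27025 promoters and 2.53% of the 10391 tested genes with one. In the macrophage list it was 3 of 24 (12.5%). Other motifs were searched in the same way. The GAS element, TTC, any 3 bases and GAA, was in 11 of the 52 (21.2%) and in 5.87% of tested genes, and the PU.1 site, GAGG directly followed by AAGT, was in 2 of the 24 macrophage promoters (8.33%) and in 2.33% of tested genes. A match is a run of letters and not a measured binding site.

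Of 50 tested interferon antiviral genes, 49 were lower in KO RAS and 43 fell (86.0%, against 3.61% of all tested genes), with a median log2 difference of −1.93. Summed over the list, the level was 2057, 2631 and 1724 CPM in WT EV, 4399, 4900 and 1290 CPM in WT RAS and 1108, 2053 and 852 CPM in KO RAS. The level was higher in WT RAS than in WT EV in the first and second lines and lower in the third, and KO RAS was lowest in each. The genotypes overlapped, since WT RAS replicate 3 was below KO RAS replicate 2. Only 4 of the 50 members were lower without overlap, and 4.17% of all tested genes were. The median difference within pairs was −2.76, −1.48 and −1.16, whereas that of the macrophage list was −2.09, −2.48 and −1.67. The 2 lists differed in the order of the pairs. Leaving out replicate 1 left 8 interferon members called, and leaving out replicate 2 left 12, whereas 50 were called without replicate 3. The unadjusted p was under 0.05 in edgeR for 49 of the 50 with all pairs, 45 without replicate 1 and 48 without replicate 2.

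Ifitm3, a membrane protein that blocks virus entry, had 617, 667 and 267 CPM in WT RAS and 259.6, 323 and 212 CPM in KO RAS (log2 fold change −0.90, SE 0.19, adjusted p = 0.0291, edgeR). Isg15, a ubiquitin-like protein attached to other proteins after interferon, had 78.9, 108 and 47.9 CPM in WT EV, 257, 259.6 and 27.9 CPM in WT RAS and 24.9, 82.00 and 8.25 CPM in KO RAS. WT RAS replicate 3 lay within the range of KO RAS. Bst2, which tethers budding virus to the cell, likewise had 461, 497 and 84.4 CPM against 86.5, 177 and 50.2 CPM. The secreted glycoprotein gene Lgals3bp had 445, 559 and 173 CPM against 131, 247 and 129 CPM.

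Outside the schlafens, large falls were those of Oas3, Oas2 and Sp100. The first pair are synthases of the messenger that switches on RNase L, and Sp100 is a nuclear body protein that restrains viral DNA. Oas3 had 9.99, 13.3 and 0.884 CPM in WT RAS and 0.182, 1.84 and 0.0833 CPM in KO RAS (log2 fold change −3.51, SE 0.45, adjusted p = 0.00138, edgeR). Oas2 (−2.90) and Sp100 (−3.17) had log2 fold changes in the same direction with adjusted p of 0.00298 and 0.000341 (edgeR). For both, the third WT RAS library was below 3 CPM in each case. The fit without pairs called no member of the interferon list (43 had an unadjusted p under 0.05, edgeR), and its median log2 difference was −1.97. With the macrophage score added to that fit, again none was called by edgeR (2 had an unadjusted p under 0.05), and the median was −0.26. The score and the genotype overlap in these libraries, so a term for one takes up part of the other.

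The GTPases that attack membranes of intracellular pathogens, GBP and IRG proteins, followed the antiviral genes. Of 10 tested members 8 fell (80.0%, against 3.61% of all tested genes), with a median of −1.77. Irgm1 had 137, 178 and 113 CPM in WT EV, 429.5, 488 and 127 CPM in WT RAS and 106, 206 and 76.00 CPM in KO RAS (log2 fold change −1.37, adjusted p = 0.0127, edgeR). Gbp2 had 76.2, 83.2 and 14.6 CPM against 12.5, 29.8 and 7.33 CPM and Iigp1 30.4, 33.8 and 6.51 CPM against 5.27, 9.35 and 2.67 CPM. No member was free of overlap, and 0, 1 and 12 members were called without replicate 1, 2 and 3. Within pairs the median log2 difference was −2.54, −1.51 and −0.87, beside −2.09, −2.48 and −1.67 for the macrophage list.

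Among 19 tested genes of interferon signalling, the genes called were transcription factors. The 7 that fell (36.8%, against 3.61% of all tested genes) included Stat2, Irf1, Irf5, Irf7, Irf8 and Irf9. Irf7, the factor that amplifies type I interferon, had 76.3, 98.98 and 13.4 CPM in WT RAS and 9.91, 26.4 and 5.83 CPM in KO RAS (log2 fold change −2.08, SE 0.32, adjusted p = 0.00526, edgeR). Irf8, a factor of the myeloid lineage, had 15.9, 17.5 and 3.86 CPM against 4.64, 2.61 and 0.833 CPM, and its r with the macrophage score was 0.99, against 0.83 for Irf7. The kinase gene Jak1 had 253, 276 and 324 CPM in WT RAS and 275, 316 and 315 CPM in KO RAS. Without replicate 1 or without replicate 2, 1 of the 7 was still called. The interferon gene Ifnb1 itself had too few counts to be tested.

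Sensors of foreign nucleic acid were mostly lower as well. Of 25 tested, 13 fell (52.0%, against 3.61% of all tested genes), with a median of −0.90, and 2 and 5 fell without replicate 1 and without replicate 2. Zbp1, a sensor of left-handed nucleic acid that can trigger cell death, had 25.8, 31.4 and 3.695 CPM in WT RAS and 3.09, 6.51 and 1.500 CPM in KO RAS (log2 fold change −2.33, adjusted p = 0.00303, edgeR). The RNA helicase sensors Ddx58 (RIG-I) and Ifih1 (MDA5) fell by 0.90 and 1.48 on the log2 scale, and Mndal, of the interferon-inducible p200 family, fell by 2.38. Sting1, the adaptor of DNA sensing, had 92.03, 87.8 and 66.5 CPM against 71.1, 58.2 and 60.7 CPM and an adjusted p of 0.0827 (edgeR).

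Genes of antigen presentation by MHC class I fell in part. Of 21 tested members 10 fell (47.6%, against 3.61% of all tested genes), with a median of −0.83. B2m, the light chain shared by class I molecules, had 1439, 1012 and 1080 CPM in WT EV, 2630, 2501 and 1269 CPM in WT RAS and 1451, 1113 and 1123 CPM in KO RAS, so the first and second WT RAS libraries stood above the other 7. H2-K1, a classical heavy chain, did likewise (383, 448 and 140.5 CPM against 128, 157 and 111 CPM). Psmb8, a subunit of the immunoproteasome, fell most (40.7, 38.6 and 7.31 CPM against 6.002, 8.58 and 3.08 CPM, log2 fold change −2.17, adjusted p = 0.000473, edgeR). H2-Q6 had low levels and no overlap, at 2.82, 3.89 and 2.25 CPM in WT RAS against 0.455, 0.766 and 0.9999 CPM in KO RAS, with r of 0.13 with the macrophage score. Class I heavy chain genes are near-identical, and reads could be split among them. Within pairs the median of the list was −1.19, −1.02 and −0.22, and 1 member was called without replicate 1 or without replicate 2, against 18 without replicate 3. For these interferon-related lists the part of macrophage content in the differences was not tested beyond the values given.

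Chemokines of the CC family were, as a list, lower than any other in the fit without pairs, with a median of −2.51 over 11 tested members. Of these, 7 fell in the paired fit (63.6%, against 3.61% of all tested genes), 4 without replicate 1 or replicate 2, and 11 without replicate 3. Ccl3, which draws monocytes, had 16.6, 16.4 and 2.65 CPM in WT RAS and 1.64, 1.53 and 0.2500 CPM in KO RAS, with no overlap (log2 fold change −3.34, SE 0.23, adjusted p = 2.9e-05, edgeR). Ccl4, a close relative, had 12.9, 16.2 and 1.205 CPM against 1.91, 1.07 and 0.583 CPM. Ccl12, a ligand of CCR2, had 16.9, 12.9 and 3.85 CPM in WT EV, 87.5, 104 and 9.24 CPM in WT RAS and 10.3, 10.3 and 2.92 CPM in KO RAS. The first and second WT RAS libraries stood well above all others for both. Ccl6 had 6.33, 4.62 and 1.099 CPM in WT EV, 106, 178 and 32.5 CPM in WT RAS and 18.6, 32.6 and 4.25 CPM in KO RAS. Its r with the score over the 9 libraries was 0.41. Those libraries include WT EV, where Ccl6 was far below WT RAS while the macrophage score was close to it. The r over the RAS libraries alone was not computed. The most abundant members, Ccl2 and Ccl7, both monocyte attractants secreted by fibroblasts too, did not pass the test. Ccl2 had 601, 647 and 184 CPM against 228, 299 and 151 CPM (log2 fold change −0.90, adjusted p = 0.0768, edgeR) and Ccl7 359.9, 402 and 136 CPM against 135, 173 and 128 CPM (adjusted p = 0.0619). Within pairs the median of the list was −2.50, −2.55 and −0.47.

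CXC chemokines were less uniform, with 3 of 10 tested members falling (30.0%, against 3.61% of all tested genes), and 1, 1 and 7 without replicate 1, 2 and 3. Cxcl10, an interferon-inducible attractant of T cells, had 57.1, 54.1 and 4.42 CPM against 8.003, 15.02 and 1.83 CPM (log2 fold change −2.14, adjusted p = 0.000336, edgeR). The median of the list was −1.59 and −1.40 in the first and second pairs and 0.18 in the third. Of 21 genes of NF-κB and its feedback, Tnf and Vcam1 fell (9.52%, against 3.61% of all tested genes). Tnf, the cytokine of activated macrophages, had 9.65, 8.18 and 1.04 CPM against 2.001, 0.996 and 0.2500 CPM with r above 0.9 with the macrophage score. Vcam1, an adhesion molecule that fibroblasts express, had 295, 383 and 192 CPM against 148, 203 and 173 CPM (log2 fold change −0.70, adjusted p = 0.0441, edgeR).

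The interleukin genes Il1a and Il1b, upstream inducers of much of the SASP, had too few counts to be tested. Il1a had 12, 24 and 6 counts in WT RAS, against 1, 6 and 2 counts in KO RAS. Il1b had 7, 61 and 3 counts in WT RAS, against 3, 18 and 3 counts in KO RAS, so a single library carried most of the WT RAS signal.

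Proteases and their inhibitors, the other arm of the SASP, gave 2 calls among 21 tested members with all pairs. Both fell (9.52%, against 3.61% of all tested genes). None was called without replicate 1 or replicate 2 by edgeR (4 and 7 had an unadjusted p under 0.05), and 6 fell and 5 rose without replicate 3. Mmp12, the macrophage elastase, had 34.7, 14.8 and 10.1 CPM in WT EV, 183, 175 and 54.1 CPM in WT RAS and 65.3, 68.7 and 38.2 CPM in KO RAS (log2 fold change −1.13, adjusted p = 0.0272, edgeR), with r of 0.30 with the score. The interstitial collagenase Mmp1a had 57.7, 85.3 and 23.8 CPM against 39.4, 56.9 and 16.1 CPM and was lower in each pair. The abundant stromelysin Mmp3 had 1666, 2199 and 906 CPM against 772, 1097 and 727 CPM and an adjusted p of 0.187 (edgeR). In the complement list, the receptors C3ar1 and C5ar1 and properdin (Cfp) fell by 1.57, 2.12 and 1.93 on the log2 scale, each with r above 0.9 with the score, and the lectin pathway protease Masp1 rose by 0.51.

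**Figure D3:**
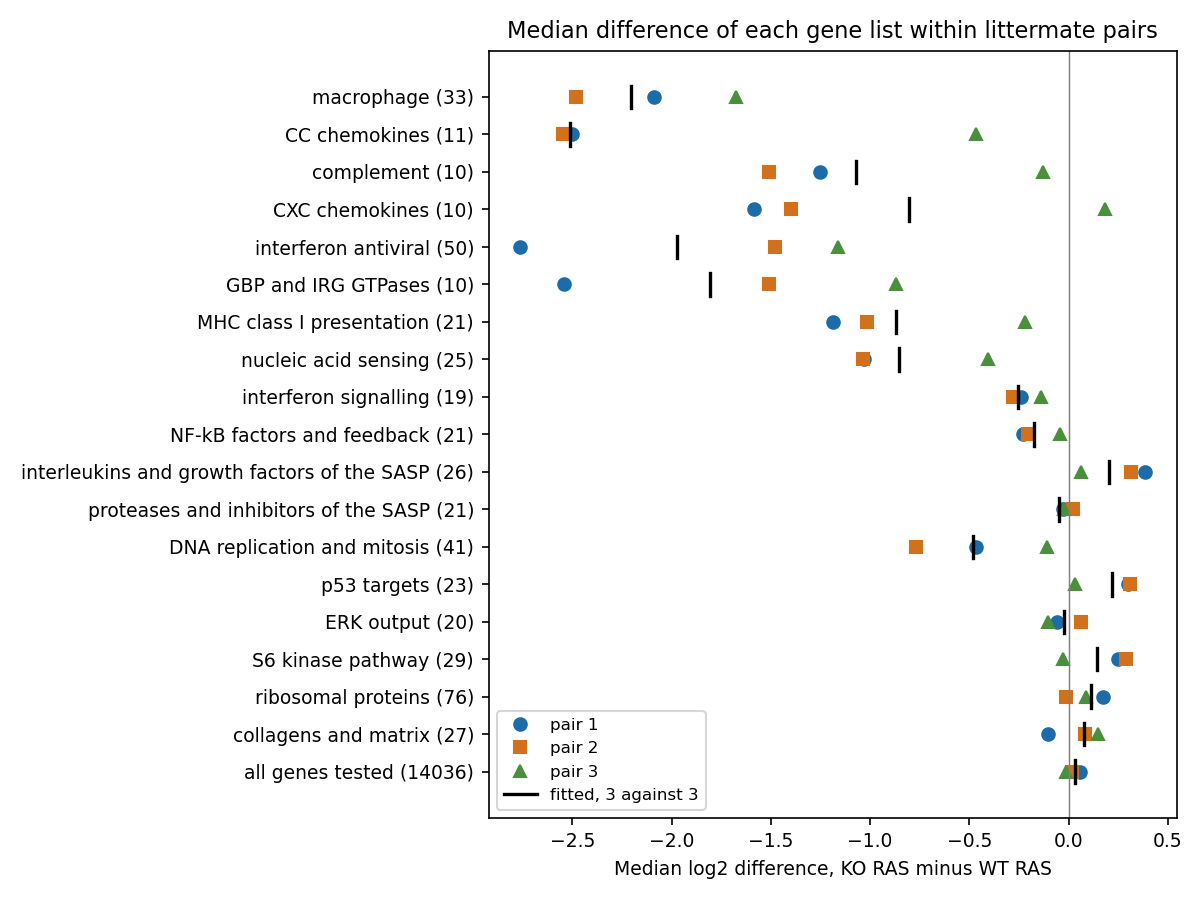
Median log2 difference, KO RAS minus WT RAS, of 18 gene lists and of all genes within each littermate pair (symbols) and in the fit of 3 against 3 libraries (bars), with the number of genes tested in parentheses. The macrophage, chemokine and interferon lists lie left of 0 in the first and second pairs and closer to 0 in the third, while the lists from ERK output down lie near 0.

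Genes that rose in KO RAS were fewer and of other kinds. Of the 77, 45 had no overlap between genotypes, among them the 12 named by size. Over all tested genes 3.85% were higher without overlap, but choosing large rises favours such a pattern. The 12 include genes of transcription factors known from the limb, of which Tbx4 and Msx1 were also called when any 1 pair was left out. No list of such factors was drawn up, and other developmental transcription factor genes fell, among them Hoxb9 (−0.42), Hoxc9 (−0.72), Irx1 (−0.61), Irx2 (−0.39) and Emx2 (−0.52), named after their values were seen. Their r with the macrophage score ranged from 0.75 to 0.95. Pitx1, which specifies the hindlimb, had 4.32, 2.31 and 4.31 CPM in WT EV, 5.21, 3.11 and 3.37 CPM in WT RAS and 19.8, 14.9 and 9.83 CPM in KO RAS (log2 fold change 1.93, SE 0.24, adjusted p = 0.00108, edgeR). Tbx4, which acts downstream of Pitx1 in the hindlimb, had 7.17, 6.15 and 4.42 CPM in WT RAS against 18.8, 19.01 and 15.00 CPM in KO RAS (1.59, adjusted p = 0.0011, edgeR). Both were above every WT EV library as well. Msx1, a homeobox factor of the growing limb tip, had 21.9, 19.1 and 32.7 CPM in WT EV, 4.18, 2.49 and 5.54 CPM in WT RAS and 10.2, 6.897 and 15.3 CPM in KO RAS, so the knockout libraries lay between the wild-type groups. Aldh1a2, which makes retinoic acid, had 6.83, 5.92 and 16.9 CPM against 29.3, 26.9 and 21.2 CPM. The digit factor Hoxd13, named after its values were seen, rose with overlap (33.9, 24.8 and 54.2 CPM against 80.9, 50.9 and 66.7 CPM, adjusted p = 0.023, edgeR). Lhx2, a LIM homeobox factor of the limb bud and forebrain, had 4.27, 1.95 and 5.14 CPM against 8.19, 7.74 and 7.42 CPM, and Tbx2, at 3.24, 4.13 and 6.43 CPM against 6.55, 7.28 and 8.83 CPM, is expressed in the limb too.

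Growth factor genes were also among those that rose. Of 26 tested interleukins and growth factors of the SASP, Fgf2 and Igfbp3 rose (7.69%, against 0.549% of all tested genes) and none fell. Neither Fgf2 nor Igfbp3 passed without replicate 1 or replicate 2. Fgf2, a mitogen of fibroblasts, had 51.99, 50.7 and 84.3 CPM in WT EV, 65.99, 48.98 and 145 CPM in WT RAS and 202, 162 and 184 CPM in KO RAS (log2 fold change 1.22, SE 0.22, adjusted p = 0.0132, edgeR). Igfbp3, a carrier of insulin-like growth factors, had 247, 211 and 582 CPM against 686, 587 and 663 CPM (1.07, adjusted p = 0.0272, edgeR). For both, the third WT RAS library was the highest of its group and came near the knockout libraries. Csn3, a milk casein gene, had 0.0696, 0.224 and 0.0916 CPM in WT EV, 4.78, 4.83 and 24.8 CPM in WT RAS and 48.1, 49.4 and 40.8 CPM in KO RAS, so it was higher in WT RAS than in WT EV in every line and highest in the knockout. The tight junction gene Cldn4 (7.26, 6.46 and 12.2 CPM against 28.4, 22.8 and 13.8 CPM) and Vwc2, an extracellular modulator of BMP signalling (5.72, 3.19 and 5.22 CPM against 18.5, 11.1 and 12.7 CPM), followed the same order. Vmn2r79, named as a vomeronasal receptor, had 2.99, 1.87 and 3.05 CPM against 14.01, 10.8 and 6.17 CPM. AF085738, a gene of unknown function, had 29.2, 36.5 and 6.78 CPM in WT EV, 3.16, 4.36 and 4.42 CPM in WT RAS and 19.5, 16.5 and 18.3 CPM in KO RAS, and the unnamed gene ENSMUSG00000111521 had 40.5, 35.4 and 6.14, 4.52, 5.06 and 2.33 and 23.6, 15.02 and 17.7 CPM in the same groups. In both, KO RAS lay above WT RAS and mostly below WT EV.

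**Figure D4:**
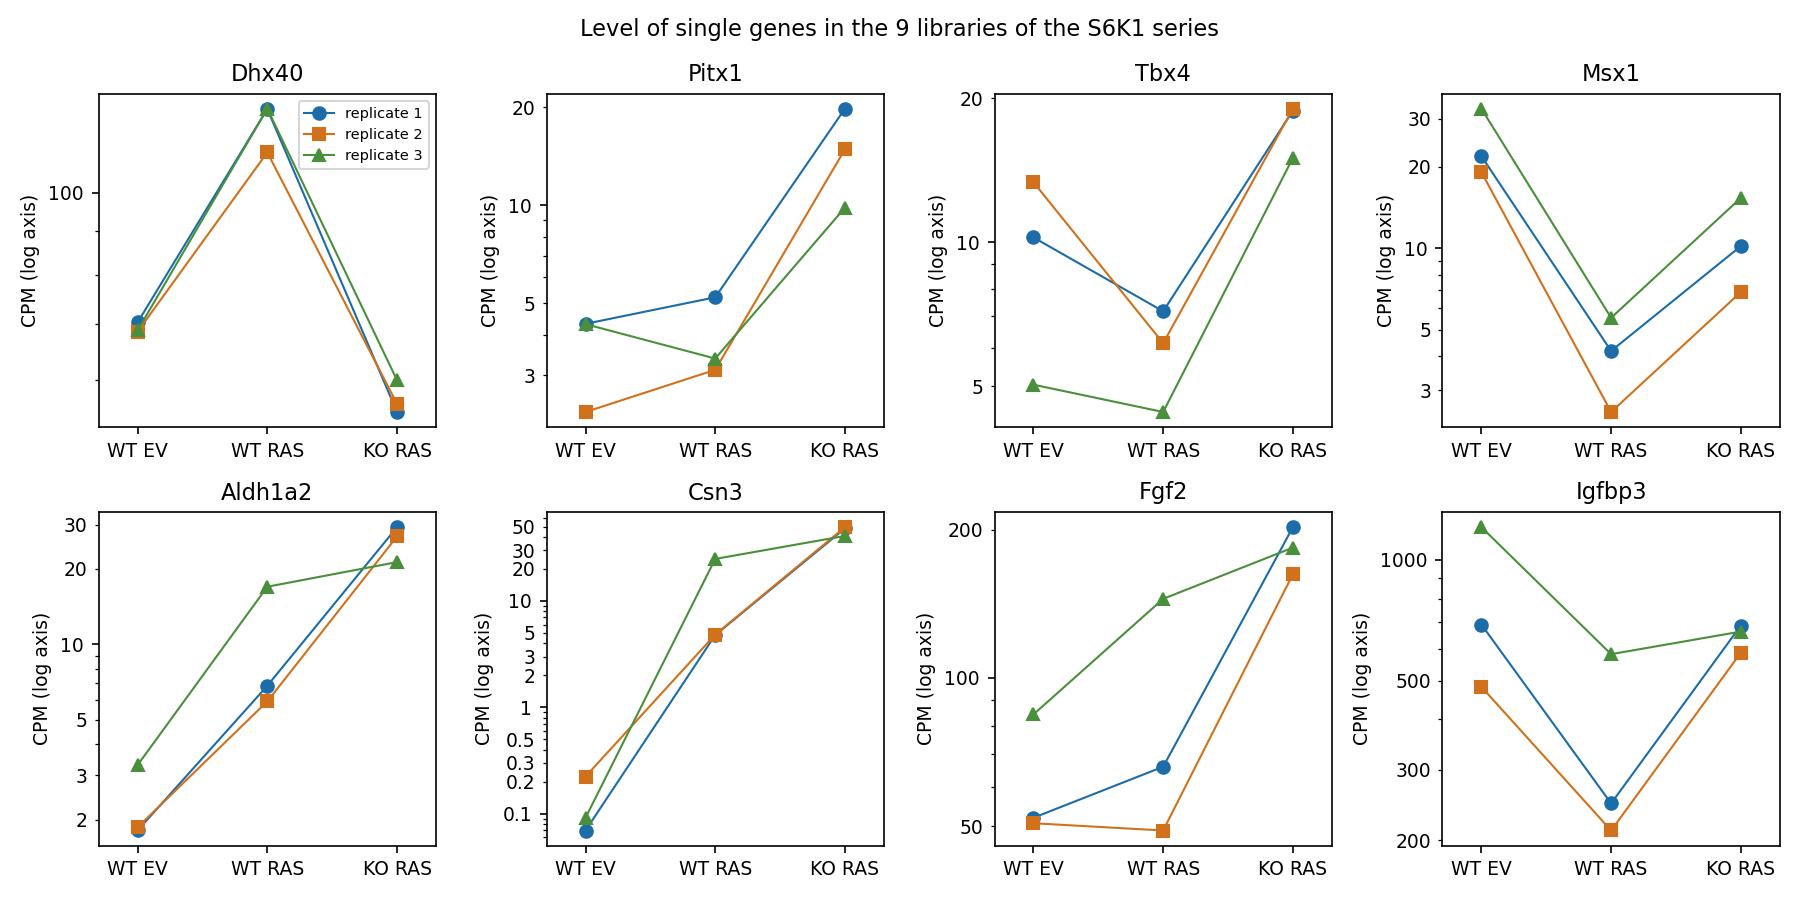
Level in CPM (log axis) of Dhx40 and of 7 genes that rose, in each of the 9 libraries, with libraries of the same replicate number joined by a line. Dhx40 in KO RAS lies below both wild-type groups in all 3 lines; the other genes are higher in each KO RAS library than in each WT RAS library.

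Genes of proliferation and of the senescence arrest gave few calls with all pairs. Of 41 tested genes of DNA replication and mitosis, 39 were lower in KO RAS, but only Mcm3 and Mcm6, subunits of the replicative helicase, fell in the paired fit (4.88%, near the 3.61% of all tested genes that fell). By unadjusted p in the paired fit, however, 27 of the 41 were under 0.05 (65.9%, edgeR), against 17.8% of all tested genes. The list moved with the macrophage markers, with r of 0.96 for Mcm6 and 0.79 for Mcm3 and a median of 0.68, and with the score as a covariate its median log2 difference without pairs went from −0.48 to −0.12. Mcm6 had 83.6, 76.7 and 43.8 CPM against 49.3, 45.4 and 38.7 CPM (log2 fold change −0.57, adjusted p = 0.0274, edgeR) and Mcm3 40.2, 29.05 and 22.7 CPM against 25.2, 16.4 and 17.8 CPM. Top2a, the topoisomerase of dividing cells, had 88.96, 82.3 and 66.7 CPM against 57.1, 48.2 and 61.2 CPM without overlap and an adjusted p of 0.0638 (edgeR). The median of the list was −0.47, −0.77 and −0.11 within pairs. All 23 p53 target genes had a positive log2 fold change, against 56.0% of all tested genes, with a median of 0.22, and Pmaip1 (NOXA) and Tnfrsf10b, both pro-apoptotic genes, rose by 0.55 and 0.46. By unadjusted p in the paired fit, 11 of the 23 were under 0.05 (47.8%, edgeR). Without replicate 3, 25 genes of the proliferation list fell and 13 p53 targets rose, whereas without replicate 1 or replicate 2 none was called in either list by edgeR (14 or 10 proliferation genes and 3 or 4 p53 targets had an unadjusted p under 0.05). DESeq2 with all pairs called 10 proliferation genes and 2 p53 targets. The arrest genes Cdkn2a (286, 221 and 251 CPM against 349, 259 and 241 CPM) and Cdkn1a (579, 550.3 and 624 CPM against 755, 647 and 636 CPM) had adjusted p of 0.478 and 0.256 (edgeR). Hras, at 118, 115 and 119 CPM in WT RAS and 141, 126 and 117 CPM in KO RAS, was above the 72.7, 50.8 and 61.9 CPM of WT EV in all 6 libraries and did not pass the test between genotypes (adjusted p = 0.594, edgeR); its reads can come from the vector as well as from the mouse gene.

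Lists tied to S6 kinase function gave few calls. Of 29 tested genes of the S6 kinase pathway Rps6kb1 alone was called with all pairs, whereas 10 members rose and 1 fell without replicate 3. Rps6kb2, which encodes the related kinase S6K2, had 22.97, 22.2 and 23.7 CPM in WT RAS and 24.1, 19.8 and 22.8 CPM in KO RAS (log2 fold change −0.05, SE 0.10, adjusted p = 0.839, edgeR). None of 76 tested ribosomal protein genes, 31 genes of ribosome biogenesis, 26 of sterol and fatty acid synthesis, 23 of glycolysis, 21 of nucleotide synthesis, 22 ATF4 targets, 37 of oxidative phosphorylation, 26 of lysosomes, 20 of ERK output, 27 of collagens and matrix or 13 of smooth muscle contraction was called in the paired fit by edgeR. Among these 320 genes, some of which are in 2 lists, 36 had an unadjusted p under 0.05 (11.3%, against 17.8% of all tested genes) and DESeq2 with pairs called 5. Without replicate 3, 43 of them were called (13.4%), 14 lower and 29 higher, against 18.6% of all tested genes. Counts of ribosomal protein genes may be uncertain in the way described for Gapdh. Rps29 had only 3 to 11 counts per RAS library and was not tested. In the NRF2 target list the ferritin heavy chain gene Fth1 fell, from 2032, 1706 and 1321 CPM to 1639, 1130 and 917 CPM (adjusted p = 0.0179, edgeR).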

How the data were processed

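Poly(A) RNA of MEFs was sequenced as single-end reads from stranded libraries. The authors deposited raw counts per gene, 1 column per library, under 55401 Ensembl identifiers. The submitters' processing notes name CASAVA, STAR 2.7.1a, mm10 and DESeq2 1.28.1, whereas the methods of the study name TopHat, mm9 and HTSeq, so aligner and build are not settled. How reads that match several places were counted is not given in the sources used here. Symbols were found for 32589 identifiers (99.1% of counts), and positions are from RefSeq on GRCm38.p6. Groups came from the labels.

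Counts of the 9 libraries of the S6K1 series were filtered with filterByExpr (minimum count 10), scaled by TMM and fitted with edgeR 4.0.16 in R 4.3.3, with group as the only term. The quasi-likelihood test was two-sided, p-values were adjusted by the Benjamini-Hochberg method over all tested genes, and calls were made under 0.05. Levels are CPM scaled by TMM, at a depth of 11366404 to 13509266 counts in the 6 RAS libraries. Log2 levels use a prior count of 2. The paired fit adds the replicate number as a block. The study describes wild-type and knockout embryos as littermates without tying replicate numbers to litters, and equal numbers were taken as pairs for that reason. Deviations from the group means correlated between same-numbered libraries (0.692, 0.393 and 0.616). These correlations come from the same counts, and differently numbered libraries were not compared, so they cannot show that the pairing is right. P-values of the fit without pairs measure the spread between libraries within the groups. Those of the paired fit measure the spread left once group and replicate number are taken out. WT EV and WT RAS share 3 wild-type lines, so the 9 libraries are not 9 independent lines. A floor of 3 counts was used for a gene at 0, which covers counting error only. DESeq2 1.42.0, other scalings, filters and sets of libraries, the macrophage score as a covariate and leaving out libraries were alternatives.

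Both fits were tested on simulated counts with known changes, where the paired fit made more false calls than the fit without pairs.

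The comparison, the 35 gene lists and the tests were chosen with earlier results of these data known. Of the listed symbols, 7 had no identifier. Named genes were 7 fixed genes, calls of the fit without pairs, the 12 largest changes in each direction in the paired fit with at least 50 counts on average and the same sign in all 3 pairs, genes called within 2 Mb of Rps6kb1, and up to 4 per list by level or change. Others are C1qa, Csf1r, further members of the lists that were called, schlafen genes, Elobl, Hoxd13, Hoxb9, Hoxc9, Irx1, Irx2 and Emx2, which were chosen after their values were seen. Some items are not reported here.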

Additional observations from a re-analysis of the deposited data

How the results depend on the processing

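The count of genes called between KO RAS and WT RAS was 1 in the fit without pairs and moved with nearly every choice other than scaling. It was 583 with the replicate block, 469 with the replicate block on the 6 RAS libraries, 0 on those 6 libraries without it (844 with an unadjusted p under 0.05, edgeR), 4 with all 18 libraries, 63 in DESeq2, 750 in DESeq2 with the replicate block and 108 with no filter on low counts. It stayed at 1 with DESeq2 size factors, upper-quartile scaling and at least 10 counts in every library. It was 5 with the macrophage score as a covariate (Elobl, ENSMUSG00000112980 and Dhx40 lower, Tbx4 and Nr4a1 higher) and 0 with the score and the replicate block together (640 unadjusted), where score, pairs and genotype overlap. Without the block, the count was 22 without WT RAS replicate 3 and 0 without any other single library. With it, the count was 162, 200 and 2627 without replicate 1, 2 and 3.

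Macrophage members called lower were 0 in the fit without pairs (32 unadjusted, edgeR), 32 with the replicate block, with the block on 6 libraries and in DESeq2 with the block, 2 in DESeq2 without it, 6 with no filter, and 27, 29 and 33 with the block without replicate 1, 2 and 3. Interferon antiviral members called lower were 0 (43 unadjusted, edgeR), 43 with the replicate block, 39 with it on 6 libraries, 46 in DESeq2 with it, 3 in DESeq2 without it, 6 with no filter, 4 without WT RAS replicate 3, and 8, 12 and 50 with the block without replicate 1, 2 and 3. The median log2 fold change of the macrophage list was −2.20, and −2.77 to −1.80 without 1 library. That of the interferon list was −1.97, and −2.86 to −1.56 without 1 library. With the score as a covariate the medians were 0.016 and −0.26, and with the score and the block −0.42 and −0.87. By construction the score takes up the macrophage list.

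Of 1950 values of named genes under the 21 alternatives, 1432 kept direction and side of the threshold, 434 gained a call, 7 lost one (all for Dhx40) and 77 changed sign, 74 of these under a fit with the macrophage score. With the score as a covariate the log2 fold changes that changed sign were Lyz2 0.20, C1qa 0.057, Bst2 0.031, Isg15 0.13, Ccl2 0.65, Ccl7 0.13, Cxcl10 1.25, Tnf 0.33, C3ar1 0.051, C5ar1 0.062, Masp1 −0.053, Mmp12 0.25, Mmp1a 0.93, Tnfrsf10b −0.015, Twist2 0.46, Fth1 0.0601, Aif1 0.0025, Mcm6 0.029, Ccl5 0.52, Irf5 0.34, Jak1 −0.089, Hoxb9 0.062, Hoxc9 0.25 and Irx1 0.14. With the score and the replicate block they were Tbx2 −0.10, C1qa 0.33, Ifitm3 0.41, Lgals3bp 0.27, Oas2 0.97, Sp100 0.20, H2-Q6 0.74, Mndal 1.26, Ccl2 0.93, Ccl7 1.55, Ccl4 3.88, Ccl12 0.81, Tnf 0.43, Vcam1 0.86, C5ar1 1.08, Cfp 0.028, Masp1 −1.10, Mmp12 0.52, Mmp3 0.068, Csn3 −3.75, Pitx1 −0.23, Aldh1a2 −2.74, Cldn4 −2.47, Fgf2 −1.78, Igfbp3 −1.99, Top2a 0.97, Pmaip1 −0.46, Tnfrsf10b −0.91, Cdkn1a −0.30, Cdkn2a −0.61, Hras −0.40, Rps6kb2 0.074, Twist2 0.56, Aif1 8.34, Mcm3 0.49, Mcm6 0.76, Hoxd13 −0.91, B2m 1.20, H2-K1 1.30, Ccl5 0.67, Lhx2 −1.69, Vmn2r79 −1.59, Irf1 0.65, Irf5 1.43, Jak1 −0.39, Sting1 0.54, Hoxb9 0.47, Hoxc9 1.08, Irx1 0.23 and Irx2 0.069. Outside these fits, Cdkn2a was at −0.028 without KO RAS replicate 1 and at up to 0.27 without another library. Rps6kb2 ranged from −0.12 without KO RAS replicate 1 to 0.033 without KO RAS replicate 2 and was at 0.0039 with the block without replicate 2. The causes of these shifts were not tested. No member of the list of sex-linked genes was left with at least 10 counts in every library. At 11366404 to 13509266 counts per library, Il1a and Il1b stayed below the filter.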

Other observations

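In the separate S6K1/S6K2 series, the macrophage list summed, as CPM of the total count, to 2336, 328 and 390 in wild-type cells with empty vector. It summed to 1427, 267 and 389 in wild-type cells with RAS and to 362, 128 and 157 in RAS cells that lack both kinases. These groups were not tested here.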
